A study of Mus musculus with 13 samples.

Results

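The Id and E protein genes were followed through 5 populations of sorted mouse T cells: *Id1*, *Id2* and *Id3*, which encode inhibitors, and *Tcf3*, *Tcf4* and *Tcf12*, which encode the E proteins E2A, E2-2 and HEB. They were chosen by name, as the entries whose symbol equals one of these 6 names in both count tables, and make up 6 of the 24417 genes measured. E proteins are basic helix-loop-helix transcription factors that bind DNA as dimers at short E-box motifs and control T cell receptor rearrangement, lineage choice and differentiation. Id proteins carry the helix-loop-helix domain but no basic region, so that they pair with E proteins and keep them off DNA. In the T cell lineage, Id3 is known as an early product of T cell receptor signaling that marks cells with long-lived or memory potential, Id2 as an inhibitor that accumulates in effector cells, and both as factors needed to maintain Treg cells.

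RNA was sequenced in bulk from TCRβ+CD4+CD8-NK1.1- T cells, doubly sorted by Foxp3 reporter and Thy1.1 from spleen and lymph nodes of C57BL/6 mice that carried a reversible reporter-null allele of *Foxp3*, the gene that defines Treg cells, or served as their controls. In the Foxp3 LSL allele a Thy1.1 reporter and a STOP cassette flanked by loxP sites block Foxp3 protein, and cells that transcribe it are called Treg “wannabes”. Tamoxifen-type drugs activate CreERT2, made from the *Cd4* locus, which removes the block in cells of the *Cd4*-expressing lineage. The first experiment asked how Treg cells restored during disease compare with Treg cells of healthy mice and with unrestored “wannabes”, and the second how “wannabes” change when inflammation starts around them.

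All mice of the first experiment were males of postnatal day 21 that had received 4-hydroxytamoxifen (4-OHT) on day 14. Control Treg cells came from healthy Foxp3 DTR-GFP/y Cd4 creERT2 mice (3 libraries), whose *Foxp3* locus encodes a fused diphtheria toxin receptor and GFP. Rescued Treg cells came from diseased Foxp3 LSL/y Cd4 creERT2 mice (3 libraries), and male “wannabes” from Foxp3 LSL/y Cd4 wt mice (2 libraries), which have no recombinase and no functional Treg cells. The mice of the second experiment were females aged 9 to 11 weeks at analysis, carried no recombinase (Cd4 wt) and all received diphtheria toxin (DT) 7, 5, 3 and 1 days before analysis. Resting “wannabes” came from Foxp3 LSL/WT females (3 libraries), which keep Treg cells that express the wild-type allele, and activated “wannabes” from Foxp3 LSL/DTR females (2 libraries), in which DT kills the other Treg cells. Sex, age, drug and count table differ between the experiments, so that male and female values are set side by side below without a test, apart from the contrast named for it. Rescued Treg cells derive from “wannabes”, not from control Treg cells. Between rescued and control Treg cells the *Foxp3* allele, the mice and the disease differ together and cannot be told apart.

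The libraries held between 25556783 and 36659638 counts on named genes. Read counts are given as CPM, counts per 1000000 after TMM scaling within each experiment, and log2 fold changes come from edgeR with an adjusted p under 0.05 as the threshold. *Foxp3* was higher in Treg cells than in “wannabes”, as labeled, with 865.1 to 1110 CPM in rescued Treg cells, 167 to 251.9 in control Treg cells and 52.8 to 99.8 in the 3 “wannabe” populations, where the blocked allele is still transcribed. The labels do not predict the gap between rescued and control Treg cells, whose *Foxp3* alleles differ. In bulk RNA a higher share of cells that express a gene and more RNA per cell cannot be told apart.

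The E-box, CANNTG on either strand, is the site through which E proteins act, and in the RefSeq promoter windows of the GRCm38.p6 build it was looked for in the 250 bases before each RefSeq start. Stretches of the *Id2* and *Tcf3* windows are shown because these are the inhibitor and the E protein whose transcripts moved most between populations. Each is the longest part of its window that no GENCODE exon covers, written 5′ to 3′ on the minus strand, on which both genes lie, with the E-box in capitals. The *Id2* stretch lies at chr12:25096254-25096342 and is 89 bases long. It falls inside the gene as GENCODE annotates it (to 25097140 on the minus strand), in an intron of its longest transcript and before an internal RefSeq start, and 161 of the 250 bases of its window are annotated as exon. Outside the annotated gene, the *Tcf3* stretch lies at chr10:80433648-80433885 and is 238 bases long.
*Id2*: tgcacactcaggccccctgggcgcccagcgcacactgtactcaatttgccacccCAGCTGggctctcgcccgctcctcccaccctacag
*Tcf3*: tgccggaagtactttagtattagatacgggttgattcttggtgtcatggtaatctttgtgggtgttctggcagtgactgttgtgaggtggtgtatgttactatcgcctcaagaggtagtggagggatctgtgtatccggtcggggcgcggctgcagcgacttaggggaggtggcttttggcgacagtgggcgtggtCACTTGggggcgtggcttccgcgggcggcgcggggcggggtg
The *Id2* window held 1 E-box, 196 bases upstream of that internal start, and the *Tcf3* window 1, 54 bases upstream of its start. The *Id2* window also held 1 copy of GGCGCC, a GC-rich element of the kind bound by BMP-activated Smad proteins, 231 bases upstream of the same start. Of 32817 mouse promoter windows of the same length, 66.2% held an E-box and 9.59% held GGCGCC. In the *Id3* window, all 250 bases of which are annotated as exon, there was no E-box. The letters CAGGTG, an E-box that E proteins favor and that 17.2% of windows hold, and TTCNNNGAA, the STAT5 site that 7.01% hold, were in neither the *Id2* nor the *Id3* window. These matches describe letters only, and no binding was measured.

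*Id1* was close to silent. Its locus is chr2:152736251-152737410 on the plus strand of GRCm38, and raw counts were 0, 26 and 16 in the control Treg libraries, 8, 7 and 0 in the rescued, 21 and 2 in the male “wannabe”, 5, 25 and 10 in the resting and 8 and 15 in the activated libraries. All 13 libraries stayed under 1 CPM, the ranges of the populations overlapped, and no difference in *Id1* was detectable at this depth (rescued against control Treg cells, log2 fold change -1.22, 95% confidence interval -5.35 to 2.91, edgeR adjusted p = 0.84).

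*Id2*, at chr12:25093799-25097140 on the minus strand, separated the 3 male populations without overlap. Control Treg libraries held 64.2, 52.0 and 51.7 CPM, rescued Treg libraries 155.1, 188.8 and 117.7 CPM, and male “wannabe” libraries 477.1 and 414 CPM. The lowest rescued library stood above every control library and the highest below both “wannabe” libraries, so that *Id2* was lowest in healthy Treg cells, intermediate in rescued Treg cells and highest in “wannabes”. It was 2.75-fold higher in rescued than in control Treg cells (153.8 ± 35.6 against 56.0 ± 7.12 CPM, SD, n = 3 each, log2 fold change 1.46 ± 0.191 SE, edgeR adjusted p = 0.0042). In male “wannabes” it reached 445.6 ± 44.6 CPM (SD, n = 2), and it was 2.90-fold lower in rescued Treg cells (log2 fold change -1.53 ± 0.206 SE, adjusted p = 0.000704) and 7.96-fold lower in control Treg cells (log2 fold change -2.99 ± 0.212 SE, adjusted p = 6.44e-05). Each of these 3 calls held when any 1 of the 8 male libraries was left out.

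In female “wannabes”, resting libraries held 464, 610.5 and 350.4 CPM of *Id2* and activated libraries 380.8 and 376.5 CPM. The activated pair lay inside the range of the resting libraries, and the difference missed the threshold in the reported fit (log2 fold change -0.33, 95% confidence interval -0.84 to 0.18, edgeR adjusted p = 0.307). The interval leaves room for a fall of *Id2* of up to 0.84 and a rise of up to 0.18 on the log2 scale.

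*Id3*, at chr4:136143497-136145755 on the plus strand, ran the other way between the Treg populations. Control Treg libraries held 335.1, 293.9 and 244.6 CPM, rescued Treg libraries 109.2, 132.3 and 67.5 CPM, and male “wannabe” libraries 94.8 and 121.4 CPM. All control libraries stood above all others, while the rescued range enclosed that of the “wannabes”. *Id3* was 2.83-fold lower in rescued than in control Treg cells (103 ± 32.9 against 291.2 ± 45.3 CPM, SD, n = 3 each, log2 fold change -1.50 ± 0.238 SE, edgeR adjusted p = 0.0102). Without control Treg replicate 1 this difference was no longer past the threshold (log2 fold change -1.39, adjusted p = 0.0531). *Id3* was 2.69-fold higher in control Treg cells than in male “wannabes” (108.1 ± 18.8 CPM, SD, n = 2, log2 fold change 1.43 ± 0.274 SE, adjusted p = 0.00576), whereas rescued Treg cells did not differ detectably from “wannabes” (log2 fold change -0.07, 95% confidence interval -0.64 to 0.50, adjusted p = 0.898). In the females, resting libraries held 78.6, 51.5 and 102.7 CPM and activated libraries 80.1 and 59.6 CPM. These ranges overlapped too (log2 fold change -0.15, 95% confidence interval -0.83 to 0.52, adjusted p = 0.729), and every “wannabe” library of either sex lay at or below 121.4 CPM, under the lowest control Treg value of 244.6.

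*Tcf3*, at chr10:80409514-80433647 on the minus strand, encodes E2A in its E12 and E47 splice forms, which these counts do not separate. It had the largest spread of the E protein genes. Control Treg libraries held 91.7, 92.0 and 73.1 CPM, rescued Treg libraries 246.7, 134 and 144.8 CPM, and male “wannabe” libraries only 21 and 31.9 CPM. The 3 populations did not overlap, and rescued Treg replicate 1 stood above its fellow libraries. With 175.2 ± 62.2 CPM (SD, n = 3), rescued Treg cells held 6.63 times as much *Tcf3* as male “wannabes” did (26.4 ± 7.67 CPM, SD, n = 2, log2 fold change 2.73 ± 0.314 SE, edgeR adjusted p = 0.000395). It was 3.24-fold higher in control Treg cells (85.6 ± 10.8 CPM, SD, n = 3) than in the “wannabes” (log2 fold change 1.70 ± 0.299 SE, adjusted p = 0.00389). Between rescued and control Treg cells the log2 fold change was 1.03 (95% confidence interval 0.48 to 1.59) and missed the threshold in edgeR (adjusted p = 0.0629), while DESeq2 gave 1.05 (adjusted p = 0.00359) and the edgeR fit of the Treg populations alone 1.04 (adjusted p = 0.0379). Without rescued Treg replicate 1 the log2 fold change in edgeR was 0.70 (adjusted p = 0.221).

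Female “wannabes” were not low in *Tcf3*. Resting libraries held 232, 248.6 and 271.6 CPM and activated libraries 270.6 and 279 CPM, with means of 250.8 ± 19.9 (SD, n = 3) and 274.8 ± 5.98 (SD, n = 2) beside the 26.4 of male “wannabes”. The ranges of the resting and activated libraries overlapped, and the difference was small (log2 fold change 0.13, 95% confidence interval -0.08 to 0.34, edgeR adjusted p = 0.317). The gap between male and female “wannabes” was not tested, since sex, age, treatment and experiment cannot be told apart in it.

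The *Tcf3* transcript is rich in G and C, and genes of that composition shifted as well. Its longest transcript has 61% GC, in the highest of 20 equal bins of genes, from 59.3% to 82.9%. The median log2 fold change in that bin was 0.19 for rescued against control Treg cells (727 genes, beside -0.03 over all genes), 0.32 for rescued Treg cells against male “wannabes” (beside 0.00) and 0.17 for control Treg cells against “wannabes” (beside 0.09). The bin of lowest GC content gave -0.16, 0.27 and 0.54 in these comparisons. The log2 fold changes of *Tcf3* lay at the 81.3, 89.8 and 86.2 percentiles of the bin in these comparisons. A correction of each library took out the median shift of each bin, not the spread within it. With it, *Tcf3* was higher on the log2 scale in rescued Treg cells than in “wannabes” by 2.45 (edgeR adjusted p = 0.000121). Control Treg cells against “wannabes” gave 1.58 (adjusted p = 0.00153) and rescued against control Treg cells 0.88 (adjusted p = 0.0421). Whether GC content plays a part in these differences was not tested.

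*Tcf4*, at chr18:69343356-69689079 on the plus strand, encodes E2-2, the E protein known for its place in plasmacytoid dendritic cells. It was low throughout. Control Treg libraries held 15.7, 15.9 and 19.1 CPM, rescued Treg libraries 6.34, 7.19 and 12.7 CPM and male “wannabe” libraries 12.0 and 11.9 CPM. Control Treg libraries stood above both other populations, yet no male comparison of *Tcf4* passed the threshold (rescued against control Treg cells, log2 fold change -0.95, 95% confidence interval -1.67 to -0.24, edgeR adjusted p = 0.17). Rescued Treg cells and male “wannabes” overlapped (log2 fold change -0.45, 95% confidence interval -1.24 to 0.33, adjusted p = 0.443), and control Treg cells against “wannabes” gave 0.50 (95% confidence interval -0.30 to 1.30, adjusted p = 0.384). Resting libraries held 5.56, 5.08 and 6.65 CPM and activated libraries 3.44 and 4.50 CPM. The activated pair lay below the resting libraries without passing the threshold (log2 fold change -0.54, 95% confidence interval -1.12 to 0.04, adjusted p = 0.155).

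*Tcf12*, at chr9:71842688-72111871 on the minus strand, encodes HEB, the partner of E2A in developing T cells, and was the steadiest of the abundant members. Control Treg libraries held 253.2, 218.8 and 278.6 CPM, rescued Treg libraries 169.3, 191.7 and 238.3 CPM and male “wannabe” libraries 162.6 and 133.6 CPM. Control and rescued Treg cells overlapped (250.2 ± 30.0 against 199.7 ± 35.2 CPM, SD, n = 3 each, log2 fold change -0.32, 95% confidence interval -0.70 to 0.05, edgeR adjusted p = 0.392), and both stood above the “wannabes” (148.1 ± 20.5 CPM, SD, n = 2). The difference passed the threshold for control Treg cells, which held 1.69 times the “wannabe” level (log2 fold change 0.76 ± 0.195 SE, adjusted p = 0.0232), and missed it for rescued Treg cells (log2 fold change 0.43, 95% confidence interval 0.01 to 0.86, adjusted p = 0.172). The call for control Treg cells was lost without control Treg replicate 1 (log2 fold change 0.75, adjusted p = 0.064), control Treg replicate 3 (0.67, adjusted p = 0.0816) or male “wannabe” replicate 2 (0.57, adjusted p = 0.129). Female libraries lay between 160 and 173 CPM, and activated and resting “wannabes” differed by -0.03 on the log2 scale (95% confidence interval -0.21 to 0.15, adjusted p = 0.807).

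**Figure D1:**
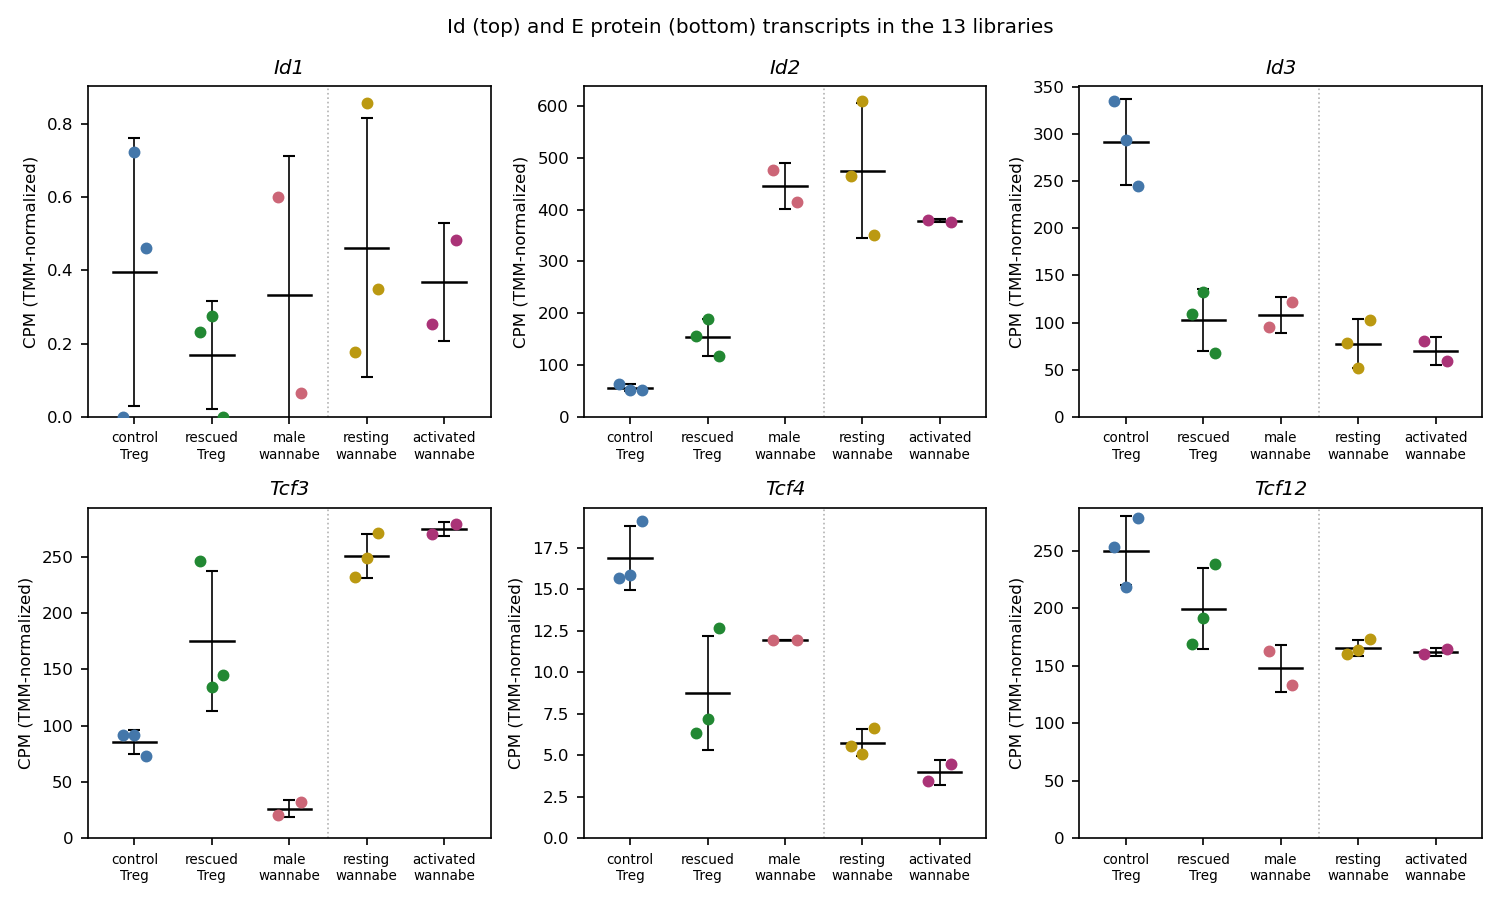
Level of each gene in CPM (y axes from 0, each with its own scale) in the 13 libraries, as points by population, with the mean as a bar and the SD as a whisker (the lower whisker of Id1 in male “wannabes” runs below 0 and is not drawn there). The dotted line separates the male from the female experiment, and the 3 male populations stand apart without overlap for Id2 and Tcf3 alone.

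Among the members, rescued and control Treg cells differed in *Id2*, which was higher in rescued cells, and *Id3*, which was lower in them. These 2 of 6 members passed the threshold, beside 2.30% of the 14925 genes tested, and DESeq2 added *Tcf3* to make 3 of 6, beside its 8.16% of all genes. In 4 of 6 members the 3 rescued libraries did not overlap the 3 control libraries, higher for *Id2* and *Tcf3* and lower for *Id3* and *Tcf4*, beside 24.2% of all genes. The median log2 fold change of the members was -0.64, beside -0.03 over all genes.

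Both Treg populations differed from the male “wannabes” in *Id2* and *Tcf3*, with less of the inhibitor and more of the E protein transcript in Treg cells. Rescued Treg cells differed in these 2 of 6 members, beside 14.1% of all genes, and 3 of 6 did not overlap, beside 42.7%. Control Treg cells differed in 4 of 6 members, *Id2* lower and *Id3*, *Tcf3* and *Tcf12* higher, beside 16.2% of all genes, and 5 of 6 did not overlap, beside 46.1%. The 3 male comparisons share libraries with one another, so that their folds are not independent.

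Activation of female “wannabes” left all 6 members short of the threshold in the reported fit. Of 7 other settings, the 2 with the replicate number as a block called *Id2* (smallest edgeR adjusted p = 0.0426). The count was 0 of 6 in edgeR and 0 of 6 in DESeq2, beside 22.5% and 26.6% of all genes, and 0 of 6 had an unadjusted p under 0.05, beside 38.1% of the 13166 genes tested. In 1 of 6, *Tcf4*, the libraries did not overlap, beside 56.5% of all genes.

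The difference of rescued from control Treg cells was compared with that of activated from resting “wannabes” in 1 contrast over all 13 libraries. *Id2* differed, with a change 1.80 higher on the log2 scale in the Treg comparison (95% confidence interval 1.14 to 2.45, edgeR adjusted p = 0.012), and it was the 1 of 6 members called by edgeR, beside 1.53% of the 15201 genes tested. Without activated “wannabe” replicate 1 or 2 the same difference had an adjusted p of 0.0772 or 0.0816. *Id3* gave -1.34 (95% confidence interval -2.18 to -0.49, adjusted p = 0.123), which DESeq2 called as well as *Id2* (-1.35, adjusted p = 0.028), making 2 of 6 beside its 5.54% of all genes. *Tcf3* gave 0.91 (95% confidence interval 0.21 to 1.62, adjusted p = 0.221). The remaining members had intervals that held 0. Sex, age, drug and count table differ between the experiments, and they cancel in this contrast only as far as they act alike on both populations of an experiment.

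**Figure D2:**
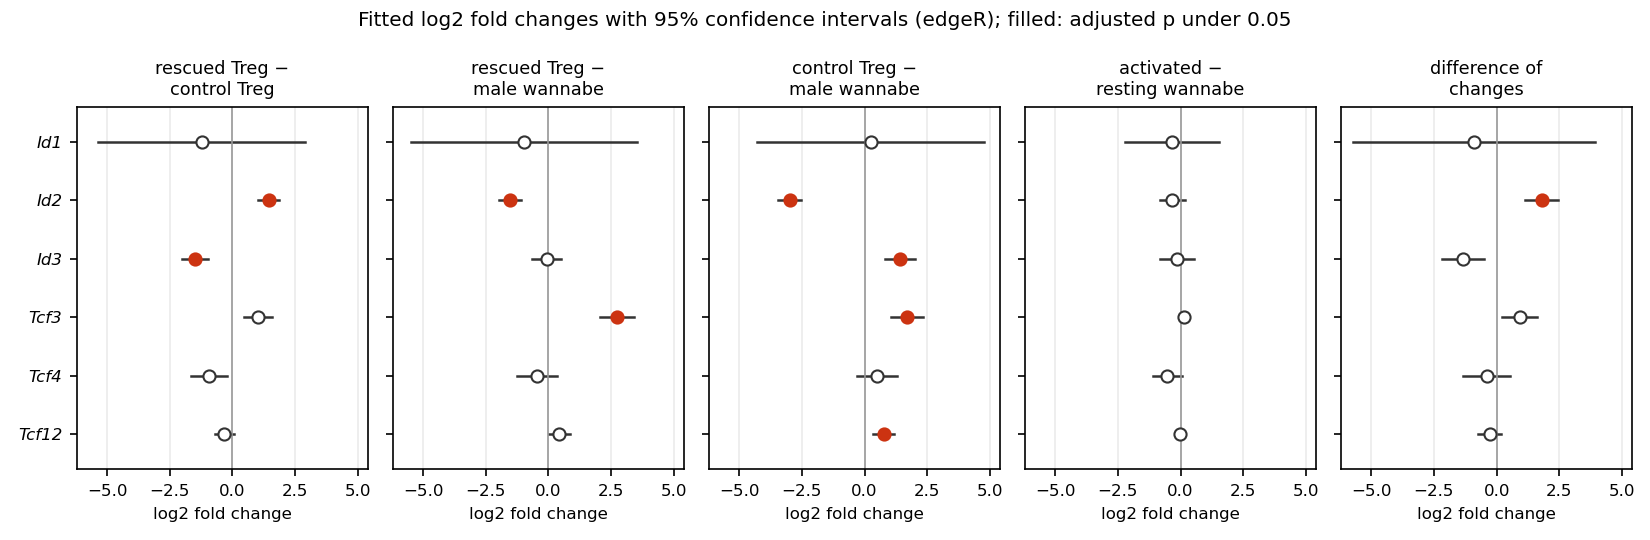
Fitted log2 fold change of each gene (x axis) in the 4 comparisons and in the difference of changes, with 95% confidence intervals as lines and filled points where the edgeR adjusted p was under 0.05. Id2 is filled in every panel apart from activated against resting “wannabes”, where no gene is.

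Levels of different genes were compared per kilobase of annotated exon, as CPM per kilobase. On this scale *Id3* led in control Treg cells, at 162.6 CPM per kilobase, above 98.8% of detected genes and 7.08 times *Id2* at 22.97. *Id2* and *Tcf3* overlapped in control Treg cells, *Tcf12* came below both and *Tcf4* and *Id1* last. In rescued Treg cells *Id2*, *Id3* and *Tcf3*, at 63.1, 57.5 and 43.4 CPM per kilobase, overlapped their neighbors in the order and could not be ranked. *Id2* led in all 3 “wannabe” populations, at 182.8 CPM per kilobase in the male, 194.8 in the resting and 155.3 in the activated cells, above at least 98.7% of detected genes.

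Below *Id2* the order differed between male and female “wannabes”. In the males *Id3* came next, then *Tcf12* at 9.54 and *Tcf3* at 6.54 CPM per kilobase, with no overlap between neighbors. In resting and activated females *Tcf3* came next, at 62.1 and 68.0 CPM per kilobase, then *Id3* and *Tcf12*. The long annotated exons of *Tcf4* and *Tcf12* lower their levels on this scale, and with the longest transcript as the length *Tcf12* ranked above *Tcf3* and *Id2* in control Treg cells.

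The summed Id transcripts differed in amount and in make-up. They reached 158.2 to 213.4 CPM per kilobase in control Treg, 85.9 to 151.5 in rescued Treg and 237.7 to 249.1 in male “wannabe” libraries, without overlap, and 188.1 to 279.9 in the females. *Id2* made up 11.5% to 13.4% of the summed Id level per kilobase in control Treg libraries, 51% to 56.2% in rescued Treg libraries and 71.5% to 78.5% in male “wannabe” libraries. In resting and activated “wannabes” the share was 71.4% to 89.5% and 77.7% to 82.1%. The ratio of *Id2* to *Id3* per kilobase was thus 0.142 ± 0.0127 in control and 1.12 ± 0.136 in rescued Treg cells (SD, n = 3 each) and 3.10 ± 0.842 in male “wannabes” (SD, n = 2), and the libraries of the 3 populations did not overlap. Resting “wannabes” had a ratio of 5.18 ± 3.18 (SD, n = 3) and activated ones 4.07 ± 0.814 (SD, n = 2). No test was run on these ratios, which combine several members in 1 score.

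**Figure D3:**
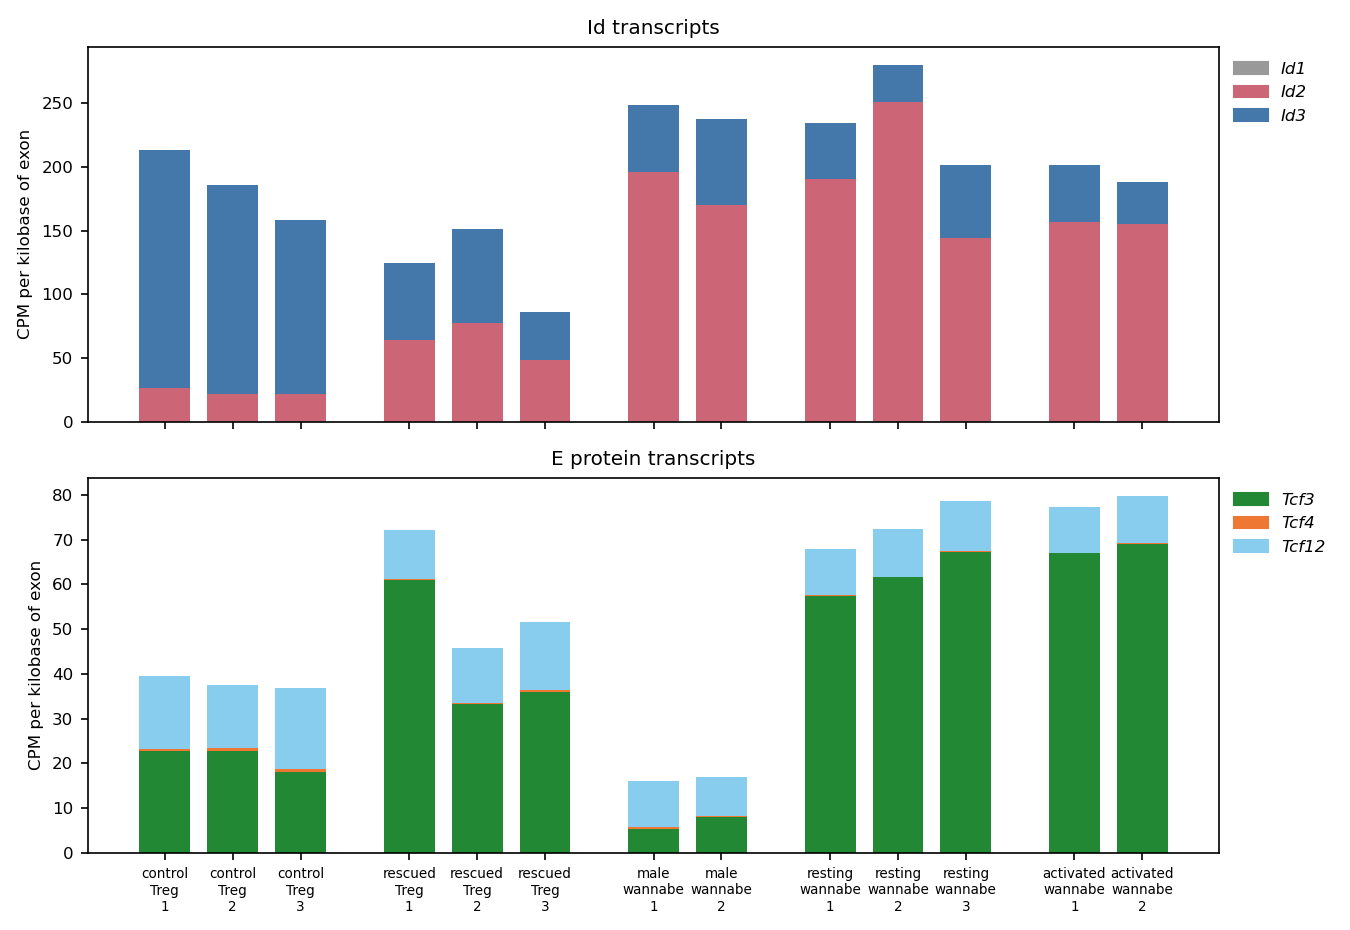
Summed Id (top) and E protein (bottom) transcript levels in CPM per kilobase of exon (y axes from 0) in each of the 13 libraries, split by gene. Id3 fills most of the Id bar in the control Treg libraries and Id2 in the “wannabe” libraries, and the E protein bars are lowest in the 2 male “wannabe” libraries.

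The summed E protein transcripts were lowest in male “wannabes”, at 16.1 and 16.9 CPM per kilobase. They reached 36.8 to 39.6 in control Treg, 45.8 to 72.2 in rescued Treg, 68.0 to 78.6 in resting and 77.4 to 79.8 CPM per kilobase in activated libraries. *Tcf3* supplied 32.3% and 46.6% of the sum in male “wannabes”, 49.3% to 60.8% in control Treg cells, 69.4% to 84.6% in rescued Treg cells and 84.5% to 86.5% in the females. These shares depend on the length used. In control Treg cells the ratio of *Tcf3* to *Tcf12* was 1.34 ± 0.307 per kilobase of annotated exon and 0.744 ± 0.170 with the longest transcript (SD, n = 3). The ratio of summed Id to summed E protein transcripts per kilobase was 14.8 ± 1.01 in male “wannabes” (SD, n = 2), against 4.89 ± 0.548 in control Treg cells and 2.23 ± 0.932 in rescued Treg cells (SD, n = 3 each). It was 3.29 ± 0.670 in resting (SD, n = 3) and 2.48 ± 0.171 in activated “wannabes” (SD, n = 2). With the longest transcript as the length the mean ratio in male “wannabes” was 9.19, against 3.63 in control and 1.79 in rescued Treg cells. Rescued Treg libraries, from 1.66 to 3.31, lay below every control Treg library, from 4.31 to 5.39, and all lay below the male “wannabes”. These are ratios of transcripts, and neither protein nor dimers were measured.

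**Figure D4:**
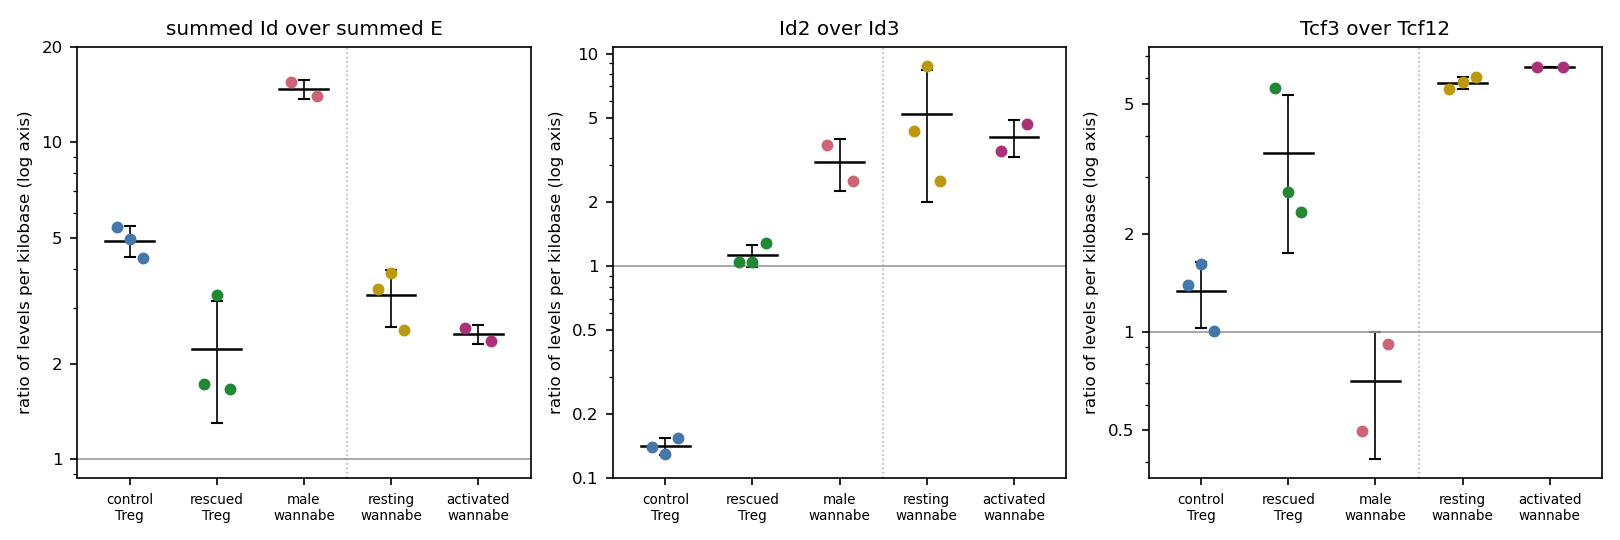
Ratios of levels per kilobase (log axes) in the 13 libraries, as points with the mean as a bar and the SD as a whisker: summed Id over summed E protein transcripts, Id2 over Id3, and Tcf3 over Tcf12. The male “wannabe” libraries have the highest Id to E ratio, and the 3 control Treg libraries lie between 0.130 and 0.155 for Id2 over Id3.

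Other cells that express these genes were looked for by their markers. NK and innate lymphoid cells are rich in *Id2*, and the summed level of their 6 markers moved with it between the Treg populations, from 0.850 to 1.64 CPM in control Treg, 6.33 to 11.7 in rescued Treg and 5.73 to 10.2 in male “wannabe” libraries. It was 5.67 to 9.31 CPM in resting and 9.27 to 12.9 in activated libraries. Of these markers *Ncr1*, which defines NK cells, had no count in control Treg, male “wannabe” or resting libraries. It stood at 1.19 ± 1.05 CPM in rescued Treg cells (SD, n = 3) and had counts, too few for a test, in activated “wannabes”. Plasmacytoid dendritic cell markers were mainly *Bst2* and *Ccr9*, which T cells also express. In sum they were lower, as *Tcf4* was, in rescued than in control Treg libraries and in activated than in resting libraries. They summed to 154.6 to 224.3 CPM in control against 113 to 136.3 in rescued Treg libraries, to 164.5 to 171.8 in male “wannabes” and to 176.7 to 278.4 in resting against 145.4 to 160.9 in activated libraries. In male “wannabes” the sum lay within the control range. Control Treg cells, rescued Treg cells and male “wannabes” held 121.8, 57.4 and 95.8 CPM of *Bst2* and 58.6, 65.7 and 71.9 CPM of *Ccr9*, so that *Ccr9* did not follow *Tcf4* there. On activation *Ccr9* fell (-0.80 ± 0.21 SE, edgeR adjusted p = 0.0394) and *Bst2* did not (58.2 and 60.1 CPM in resting and activated cells). The defining *Siglech* had no count in any male library and had counts, too few for a test, in both female populations. Of the 5 endothelial markers *Pecam1*, which Treg cells also express, made up nearly all of 258.9 to 307.8 CPM in control Treg libraries and of 142 to 197.5 CPM in all others, and so moved with *Id3* and *Tcf4*. *Pecam1* was called lower in rescued than in control Treg cells (-0.71 ± 0.153 SE, edgeR adjusted p = 0.0359) and higher in control Treg cells than in male “wannabes” (0.59 ± 0.173 SE, adjusted p = 0.0398). Conventional dendritic cell markers summed to 0.892 to 1.93 CPM in control Treg, 2.17 to 3.72 in rescued Treg and 4.20 to 7.36 in male “wannabe” libraries, the order of *Id2*, and to 3.23 to 7.91 CPM in the females. Fibroblast markers were lowest in control Treg libraries too, at 0.460 to 0.850, 2.77 to 6.16 and 3.32 to 16.8 CPM with overlap of the last pair, and lay between 0.665 and 3.86 CPM in the females. *Col1a2* was lower in control Treg cells than in “wannabes” (edgeR adjusted p = 0.0109). The sort gate was set on TCRβ+CD4+ cells negative for CD8 and NK1.1, and the purity after sorting is not known here. *Klrb1c*, which encodes NK1.1, followed the order of *Id2*, at 0.787 ± 0.475 CPM in control and 3.07 ± 1.72 CPM in rescued Treg cells (SD, n = 3 each) and 5.72 ± 1.57 CPM in male “wannabes” (SD, n = 2), and was lower in control Treg cells than in “wannabes” (log2 fold change -2.86 ± 0.759 SE, edgeR adjusted p = 0.0263). The part of NK, innate lymphoid, dendritic, endothelial or fibroblast cells in the libraries was not tested.

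Summed T cell markers lay between 3183 and 4905 CPM in all libraries, and summed Treg markers between 2735 and 4084 in Treg and 1484 and 1982 in “wannabe” libraries. B cell markers, mainly *Cd79b*, summed to 33.2 to 44.9 CPM in the male, 10.2 to 12.3 in the resting and 22.6 to 24.8 CPM in the activated libraries. Monocyte and macrophage markers summed to 3.89 to 10.9 CPM in control Treg, 2.37 to 8.47 in rescued Treg and 0.985 to 2.41 in male “wannabe” libraries, and to 0.992 to 7.26 CPM in the females. *Itgam* among them was higher in control Treg cells (7.92 ± 4.02 CPM, SD, n = 3) than in male “wannabes” (0.486 ± 0.566 CPM, SD, n = 2, edgeR adjusted p = 0.0256), a comparison in which 4 of 6 members were called. CD8 T cell markers summed to 9.72 to 27.8 CPM over all libraries and erythroid and megakaryocyte markers to 1.28 to 18.2 CPM, with *Hba-a1* lower in control Treg cells than in male “wannabes” (edgeR adjusted p = 0.0483). The part of these cells was not tested either.

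The other genes of the pathway were read against the same background shares of all genes called by edgeR: 2.30% for rescued against control Treg cells, 14.1% and 16.2% for rescued and control Treg cells against male “wannabes”, 22.5% on activation and 1.53% for the difference of changes. The medians over all genes to set beside those of the lists were -0.03 for rescued against control Treg cells, 0.00 for rescued Treg cells against male “wannabes”, 0.09 for control Treg cells against male “wannabes”, -0.01 for activated against resting “wannabes” and -0.03 for the difference of changes. Among 9 further family members and partners, such as *Id4* and *Tal1*, only 4 were detected well enough to be tested in the males and 2 in the females. *Twist2*, a helix-loop-helix partner of E proteins, rose on activation of “wannabes” from 1.93 ± 0.751 (SD, n = 3) to 6.69 ± 1.18 CPM (SD, n = 2, log2 fold change 1.79 ± 0.357 SE, edgeR adjusted p = 0.0167), and no other passed the threshold. The list's median log2 fold changes were -0.25, -0.05, 0.27, 0.57 and 2.15 in the 5 comparisons, in the order just given. The last is the median of only 4 genes, none of them called, with standard errors from 0.839 to 2.99.

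Coregulators that E proteins recruit mostly missed the threshold, apart from *Lmo4*. In the males 1 of 9 tested passed the threshold for rescued against control Treg cells, 1 for rescued Treg cells against “wannabes” and 0 for control Treg cells against “wannabes”. *Lmo4*, a LIM-only adaptor, was lower in rescued than in control Treg cells (3.52 ± 0.691 against 17.2 ± 3.56 CPM, SD, n = 3 each, log2 fold change -2.29 ± 0.335 SE, edgeR adjusted p = 0.00802). It was also lower in rescued Treg cells than in “wannabes” (-1.23 ± 0.354 SE, adjusted p = 0.0412). On activation of “wannabes” 3 of 9 fell, beside 22.5% of all genes called in either direction: *Lmo4* (-2.12 ± 0.273 SE, adjusted p = 0.00354) and the acetyltransferases *Crebbp* (-0.42 ± 0.101 SE, adjusted p = 0.0288) and *Kat2a* (-0.36 ± 0.0773 SE, adjusted p = 0.021). The difference of changes called 0 of 10. Median log2 fold changes were -0.19, 0.17, 0.29, -0.06 and -0.07 in the same order.

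Genes that control Id transcription, which include the receptors and Smad proteins of TGF-β and BMP signaling, Egr factors, Blimp-1 and Bcl6, changed in 1 of 18 between rescued and control Treg cells, beside 2.30% of all genes. *Prdm1*, which encodes Blimp-1, a repressor of *Id3*, was higher in rescued than in control Treg cells (184.1 ± 78.5 against 67.2 ± 14.2 CPM, SD, n = 3 each, log2 fold change 1.46 ± 0.294 SE, edgeR adjusted p = 0.0276). Rescued Treg cells against “wannabes” gave 5 of 18, beside 14.1%, with *Smad1* (2.03 ± 0.569 SE, adjusted p = 0.0361) and *Egr1*, an inducer of *Id3* (1.54 ± 0.264 SE, adjusted p = 0.00293), among 4 that were higher and *Bcl6* the 1 that was lower (-1.57 ± 0.278 SE, adjusted p = 0.00352). Control Treg cells against “wannabes” also gave 5 of 18, beside 16.2%, with 4 higher, among them the TGF-β receptor genes *Tgfbr1* (1.08 ± 0.211 SE, adjusted p = 0.00626) and *Tgfbr2* (1.02 ± 0.194 SE, adjusted p = 0.00558) and *Egr1* (0.93 ± 0.258 SE, adjusted p = 0.0316), and 1 lower.

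Activation of “wannabes” lowered 5 of these 18 genes and raised 0, where 22.5% of all genes passed the threshold in either direction. The falls were largest for *Bmpr2* (log2 fold change -1.09 ± 0.204 SE, edgeR adjusted p = 0.0135), *Tgfbr2* (-0.84 ± 0.0826 SE, adjusted p = 0.00134) and *Tgfbr1* (-0.74 ± 0.121 SE, adjusted p = 0.00849). The change differed between the experiments for 2 of 18, *Prdm1* (2.27 ± 0.469 SE, adjusted p = 0.0299) and *Egr1* (1.33 ± 0.288 SE, adjusted p = 0.0374). Median log2 fold changes of the list were -0.12, 0.23, 0.37, -0.25 and 0.09.

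Genes for the turnover of Id and E proteins included *Fzr1*, an activator of the anaphase-promoting complex, which targets Id proteins for degradation. It was the 1 of 6 that was higher in rescued than in control Treg cells (124.9 ± 23.0 against 59.4 ± 10.5 CPM, SD, n = 3 each, log2 fold change 1.07 ± 0.21 SE, edgeR adjusted p = 0.0248). Both Treg populations held more *Fzr1* than “wannabes” (rescued 2.12 ± 0.253 SE, adjusted p = 0.000415, and control 1.05 ± 0.241 SE, adjusted p = 0.0141). The same held for *Stub1*, which encodes a ubiquitin ligase (rescued 1.36 ± 0.236 SE, adjusted p = 0.00321, and control 1.27 ± 0.235 SE, adjusted p = 0.00479), so that 2 of 6 changed in each comparison, beside 14.1% and 16.2% of all genes. On activation of “wannabes” 3 of 6 rose, *Skp2* (0.91 ± 0.204 SE, adjusted p = 0.0244), the deubiquitinase gene *Usp1* (0.74 ± 0.115 SE, adjusted p = 0.00724) and *Fzr1* (0.61 ± 0.0969 SE, adjusted p = 0.00763), and *Stub1* fell, beside 22.5% of all genes called. The difference of changes called 0 of 6, and the medians were 0.12, 0.68, 0.01, 0.39 and 0.32.

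Genes that E proteins are known to activate moved in both directions, and 10 of 14 could be tested. In rescued against control Treg cells 2 of 10 were higher, beside 2.30% of all genes called. One was *Cdkn1a*, which encodes the cell cycle inhibitor p21 (12.3 ± 2.92 against 4.13 ± 1.19 CPM, SD, n = 3 each, log2 fold change 1.58 ± 0.308 SE, edgeR adjusted p = 0.0238). The other was *Il7r*, the interleukin-7 receptor gene (408.1 ± 89.0 against 202.1 ± 35.1 CPM, SD, n = 3 each, 1.01 ± 0.187 SE, adjusted p = 0.0191). Against “wannabes”, rescued Treg cells differed in 5 of 10, beside 14.1% of all genes, with 3 higher, among them the cytokine signaling inhibitors *Socs1* (2.96 ± 0.582 SE, adjusted p = 0.00628) and *Socs3* (1.56 ± 0.357 SE, adjusted p = 0.014), and 2 lower, among them *Cdkn1a* (-1.77 ± 0.328 SE, adjusted p = 0.00466). Control Treg cells differed in 6 of 10, beside 16.2%, with *Socs1* among 3 higher (2.36 ± 0.565 SE, adjusted p = 0.0168) and *Cdkn1a* (-3.35 ± 0.342 SE, adjusted p = 0.000382) and *Cd4* (-1.51 ± 0.164 SE, adjusted p = 0.000456) among 3 lower. *Cdkn1a* was thus highest in male “wannabes”.

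On activation of “wannabes” 3 of these 10 genes rose and 2 fell, beside 22.5% of all genes called. *Cxcr4*, a chemokine receptor gene, fell from 22.04 ± 1.49 (SD, n = 3) to 10.2 ± 1.75 CPM (SD, n = 2, log2 fold change -1.11 ± 0.162 SE, edgeR adjusted p = 0.00563), and *Cdkn1a* rose (2.04 ± 0.259 SE, adjusted p = 0.00337). The difference of changes called 1 of 10, *Il7r* (1.26 ± 0.265 SE, adjusted p = 0.033). The medians were 0.42, 0.59, 0.40, 0.18 and 0.36.

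Transcription factors that act with Id or E proteins in T cells changed between the Treg populations in 6 of 10 tested, beside 2.30% of all genes. *Tbx21*, which encodes T-bet, was 1 of 2 that were higher in rescued than in control Treg cells (49.3 ± 12.8 against 10.2 ± 3.78 CPM, SD, n = 3 each, log2 fold change 2.27 ± 0.422 SE, edgeR adjusted p = 0.0192). *Bach2*, which restrains effector differentiation, was among 4 that were lower (64.8 ± 10.0 against 273.6 ± 32.9 CPM, SD, n = 3 each, -2.08 ± 0.174 SE, adjusted p = 0.000393), and so was *Tox* (-1.37 ± 0.217 SE, adjusted p = 0.0102). Rescued Treg cells differed from “wannabes” in 2 of 10, beside 14.1% of all genes, higher for *Tbx21* (2.89 ± 0.511 SE, adjusted p = 0.00354) and lower for *Tcf7*, which encodes TCF-1 (-2.05 ± 0.163 SE, adjusted p = 0.000202). Control Treg cells differed in 4 of 10, beside 16.2%, with *Bach2* (1.99 ± 0.202 SE, adjusted p = 0.000382) and *Tox* (1.82 ± 0.255 SE, adjusted p = 0.00136) higher and *Tcf7* (-1.07 ± 0.162 SE, adjusted p = 0.00187) among 2 lower.

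On activation of “wannabes” 5 of these 10 changed, beside 22.5% of all genes. *Tbx21* (log2 fold change 3.10 ± 0.205 SE, edgeR adjusted p = 0.000465) and *Gata3* (1.16 ± 0.068 SE, adjusted p = 0.000334) rose, and *Zeb2*, an E-box binding repressor (-2.35 ± 0.364 SE, adjusted p = 0.00704), was among 3 that fell. The difference of changes called 2 of 10, *Tcf7* (-1.01 ± 0.182 SE, adjusted p = 0.0145) and *Bach2* (-1.31 ± 0.238 SE, adjusted p = 0.0152), both lower in the Treg comparison. The medians were -0.34, 0.14, 0.49, -0.19 and -0.42. All of these lists were chosen with results of these data known.

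The genes with the most similar profile were found for each member but *Id1*, as the smallest root-mean-square difference in log2 CPM over the 13 libraries, centered within each experiment, among 10239 genes. *Id2* was nearest to *Cxcr6*, a chemokine receptor gene, at 0.199 on the log2 scale, where the profile of *Id2* itself has a root-mean-square of 0.942, followed by *Ctla2a* (0.356) and *F2r* (0.369). *Id3* was nearest to *Wnt3* (0.281), the NF-κB subunit gene *Rel* (0.307) and *Bmyc* (0.308). *Tcf3* had closer neighbors than *Id2* or *Id3*, in *Sys1* (0.099), *Pgls* (0.100) and *Eif3b* (0.113). *Tcf4* was nearest to *Nudt13* (0.180), *Dcun1d2* (0.186) and *Foxp1* (0.193), and *Tcf12* to *Inpp4b* (0.071), *Dock10* (0.084) and *Srpk2* (0.097). These points share libraries and library effects, and the likeness is a description.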

How the data were processed

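Bulk RNA-seq libraries of sorted T cells came from 2 experiments and were prepared by SMART-Seq v4 amplification, with 8 male and 5 female libraries assigned to populations by their labels. The authors aligned the reads with STAR 2.7.3a to GRCm38, applied local realignment and summed the reads of each gene in R. The deposited files hold these counts as whole numbers, not normalized. The gene annotation and strand setting are not given in the sources used here, and the submitters' processing notes also name DESeq2 1.28.1.

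Of the 24421 entries in each table, 4 without a gene name (at most 0.00841% of counts) were left out. Fold changes were fitted by edgeR 4.0.16 under R 4.3.3 (TMM, filterByExpr, quasi-likelihood F test, Benjamini-Hochberg adjustment over all genes tested, threshold 0.05), in 1 fit over the 8 male libraries, 1 over the 5 female libraries and 1 over all 13 for the difference of changes. The common biological coefficient of variation was 0.510, 0.171 and 0.405 in these fits. Loci, exon lengths (union of annotated exons) and GC content of the longest transcript came from GENCODE release M21 on GRCm38, matched by symbol for 23659 genes (96.9%), and promoter windows from RefSeq. Library totals had a median of 31462226, and a floor of 3 counts is 0.0818 to 0.117 CPM, which covers counting error only. Replicate libraries differed by more than sampling noise (chi-square over its degrees of freedom 13.2 to 144.4). They are described as biological replicates, and p-values measure the spread between these few mice.

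The members and gene lists were chosen with earlier results of these data known. The text names the 6 members, from each pathway list the 3 genes with the largest change among those past the threshold in a comparison, the 3 nearest profiles of each member with a mean normalized count over 100, and *Foxp3*; *Stub1* (lower on activation) was named after its value was seen. A result that this rule covers is not reported here. Alternatives were DESeq2 1.42.0, its size factors in edgeR, a minimum mean normalized count of 100 or no filter at all, blocking on the replicate number, fitting the compared populations alone, the longest transcript as the length and leaving out each library in turn. A correction for GC content, an offset per library from its median deviation in 20 bins of genes, alone and with the block, was added after the data had been seen. The scripts were tested on simulated data. Single-cell libraries and protein measurements were not used here.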

Additional observations from a re-analysis of the deposited data

Results flagged for a closer look

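*Id2* drew attention because its change differed between the experiments by a test of the difference itself. The change of rescued against control Treg cells was 1.80 higher on the log2 scale than the change of activated against resting “wannabes” (SE 0.303, edgeR adjusted p = 0.012). The libraries behind the first change did not overlap (64.2, 52.0 and 51.7 against 155.1, 188.8 and 117.7 CPM), and those behind the second did. The cause was not tested.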

How the results depend on the processing

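Leaving out each library in turn gave 252 fits of single genes, of which 234 kept direction and side of the threshold, and under the other settings 196 of 216 did. Where a population kept 1 library, that library was assumed to vary like the others. The calls of *Id2* in the 3 male comparisons and of *Tcf3* against male “wannabes” held in all of them. The number of members called for rescued against control Treg cells ranged from 1 to 3 when a library was left out, and for the difference of changes from 0 to 1. *Tcf3* for rescued against control Treg cells, short of the threshold in the reported fit, passed it in 6 of 8 other settings (adjusted p from 0.00359 to 0.0591). It missed the threshold in every fit that left out a rescued or control Treg library (edgeR adjusted p from 0.0602 to 0.221). Without a male “wannabe” library, which is no part of this comparison, the log2 fold change was 1.035 or 1.037. DESeq2 called 2 members for the difference of changes, adding *Id3* (-1.35, adjusted p = 0.028). It called more genes in all, 1195, 3316 and 3751 in the male comparisons and 792 for the difference, against 343, 2105, 2416 and 233 in edgeR. Without a filter edgeR called 612 genes for rescued against control Treg cells, and in the fit of these populations alone 580. The cause was not tested.

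Direction turned only for values far from the threshold. For *Id1* it turned when a library was left out, with ranges of -1.86 to 1.30 for rescued and -0.65 to 2.51 for control Treg cells against “wannabes” and -0.86 to 0.47 on activation. For *Id3* it turned against “wannabes” in rescued Treg cells (-0.25 to 0.16 when a library was left out, 0.091 with the GC correction) and on activation (-0.39 to 0.10), and for *Tcf12* on activation (-0.06 to 0.004). With the longest transcript as the length the Id to E ratio was 3.63 in control Treg cells, 1.79 in rescued Treg cells, 9.19 in male, 2.72 in resting and 2.07 in activated “wannabes”.

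Same-numbered libraries correlated between -0.083 and 0.276 in their deviations from the population means, and nothing in the labels pairs them. With the replicate number as a block, activation called 1 member, *Id2* (-0.49, edgeR adjusted p = 0.0435), and the difference of changes 2, *Id2* and *Id3* (-1.65, adjusted p = 0.0153). The block turned *Id3* to 0.086 for rescued Treg cells against “wannabes” and 0.117 on activation, and *Tcf12* to 0.004 on activation. With the block and the GC correction together these were 0.238, 0.067 and 0.025, *Tcf4* in control Treg cells against “wannabes” was -0.06, *Tcf12* there lost its call (0.44, adjusted p = 0.0551), and the counts were again 1 and 2.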
